A study of Mus musculus with 12 samples.

Results

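ATF4 is the transcription factor of the integrated stress response, and the 35 genes described here are Atf4 itself, its partners and targets, and the genes of serine, one-carbon, proline and asparagine synthesis and of amino acid transport that it is known to drive. They were chosen by gene symbol, from a list drawn up with the very large fall of Fgf21 under PFI-3 at DM 24h already known. The PFI-3 comparison at DM 24h is therefore given as a description with no test, and Fgf21 is not tested in any contrast of those libraries. Of the 16288 genes listed in at least 1 library, 12545 passed the low-count filter, and all 35 chosen genes were among them. Fgf21 passed it through the differentiation libraries alone, since it was at or near 0 in proliferating cells. By role the 35 fall into 7 regulators, 6 stress effectors and brakes, 4 genes of secreted factors and of the receptor Vldlr, 10 amino acid and one-carbon enzymes, and 8 amino acid transporters.

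In the integrated stress response, kinases that sense amino acid shortage, unfolded protein, double-stranded RNA or haem deficiency phosphorylate the initiation factor eIF2, which lowers general translation and lets Atf4 mRNA be translated. ATF4 then pairs with C/EBP proteins and binds composite C/EBP-ATF elements upstream of its targets. In muscle the pathway is known for the secreted factors FGF21 and GDF15, which respond to mitochondrial and nutrient stress, and for supplying amino acids.

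The cells were C2C12, an immortalized mouse myoblast line that forms myotubes when serum is reduced, so all libraries come from 1 cell line. They were collected while proliferating (GM, growth medium) or after 24 h in differentiation medium with horse serum and insulin (DM 24h), or after 48 h in it (DM 48h). At each stage cells received DMSO, the vehicle, or 50 uM PFI-3, a ligand of the bromodomains of the SWI/SNF ATPases BRM and BRG1 and of the subunit PB1. Exposure lasted 12 h before harvest in GM, began 12 h before the medium change for the other stages, and was refreshed every 24 h. Each of the 6 groups has 2 libraries, A and B, and nothing in the labels says whether the letters are separate cultures, so the p-values measure the spread between these libraries, which may be technical.

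Expected counts per library summed to between 12576374 and 13658352. The myoblast and muscle markers fitted the label at every stage: Vim and Des were present throughout, and Myog, Myh3, Ckm, Acta1 and Mymk rose with differentiation in DMSO. Of 9 markers of other cell types, 7 were listed, and no library had more than 26 counts of any of them (Hba-a1). The replicate spread differed between stages. For 10656 genes averaging 50 counts or more, the log2 ratio of library B to A had an SD of 0.333 in GM DMSO and 0.301 in GM PFI-3, against 0.138 to 0.151 in the groups at DM 24h and DM 48h. One model with a shared spread was fitted to all 12 libraries, so its p-values for GM rest largely on the tighter differentiation libraries. In turn, its p-values at DM 48h also carry the wider spread of the GM libraries.

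For the chosen genes the GM PFI-3 pair stood apart. Library A was the highest of the 4 GM libraries for 28 of the 35 genes, compared with 22.6% of all genes tested, and was at least 1.5-fold above library B for 20 of the 35, compared with 5.60% of all genes tested. The median log2 ratio of A to B over the 35 genes was 0.67 in GM PFI-3, 0.10 in GM DMSO, and between 0.00 and 0.02 in the 4 differentiation groups. The same ratio was 0.45 in GM PFI-3 for 20 cytosolic aminoacyl-tRNA synthetases, some of them known ATF4 targets, and -0.40 for 10 myoblast and muscle markers. The calls for PFI-3 in GM are therefore also given without each of these libraries. What sets library A apart was not tested.

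**Figure D1:**
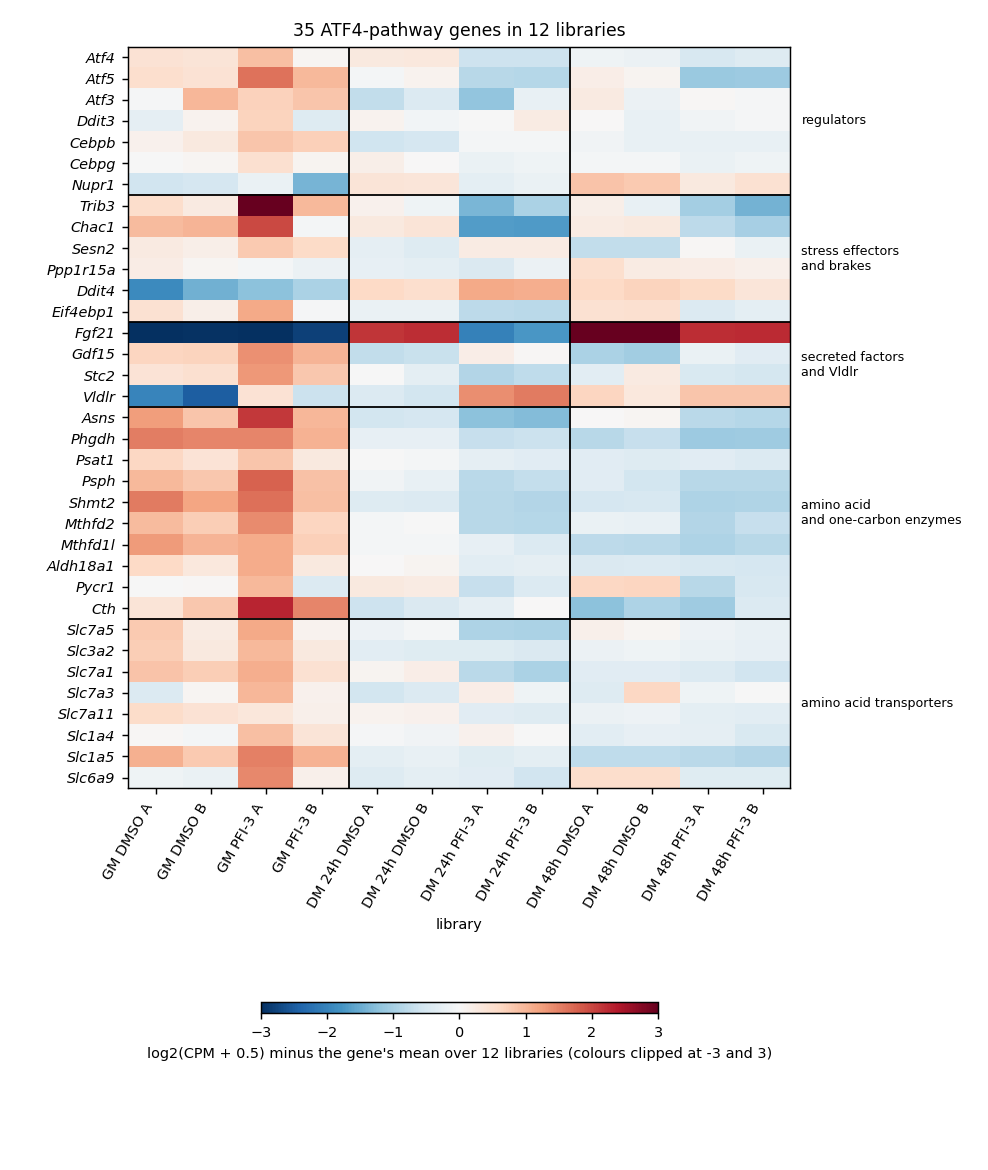
Level of the 35 genes (rows, grouped by role) in the 12 libraries (columns), as log2(CPM + 0.5) minus the mean of the gene over all libraries; red is above and blue below that mean, and colours are clipped at -3 and 3. GM PFI-3 library A is the reddest column for most genes, the enzymes are red in GM and blue later, and Fgf21 runs from its lowest level in GM to its highest in DM 48h DMSO.

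RefSeq promoters (GRCm38.p6, the assembly behind the mm10 build that the submitters' processing notes name; 250 bases before to 50 bases after the start) were matched for 30 of the 35 genes and searched on both strands for TGATGCAA, the core of the composite element that ATF4 binds with C/EBP partners. It occurred in 279 of 27025 promoters (1.03%) and in 8 of the 30: Atf3, Nupr1, Chac1, Fgf21, Vldlr, Pycr1, Slc7a11 and Slc1a4. The looser form TGATGNAA, which includes every TGATGCAA, occurred in 1219 promoters (4.51%) and in 10 of the 30, adding Trib3 and Asns. The matches are shown because they place the element beside genes whose values follow; capitals mark TGATGCAA or its reverse complement, and each sequence runs in the direction of its gene. The Fgf21 sequence is the 250 bases before its start (chr7:45615491-45615740, minus strand, upstream of the gene at chr7:45613890-45615490), with the match 139 bases before the start.
Fgf21: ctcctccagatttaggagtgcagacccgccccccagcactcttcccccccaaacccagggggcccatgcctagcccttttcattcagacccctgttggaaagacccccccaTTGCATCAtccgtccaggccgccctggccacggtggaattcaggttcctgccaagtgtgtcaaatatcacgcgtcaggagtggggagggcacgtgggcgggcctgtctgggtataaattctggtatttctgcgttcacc
The others are windows around the match: Atf3 at chr1:191183410-191183469 (minus strand), Nupr1 at chr7:126625562-126625591 (minus), Chac1 at chr2:119351023-119351082 (plus), Vldlr at chr19:27216809-27216838 (plus), Pycr1 at chr11:120643818-120643877 (minus), Slc7a11 at chr3:50443627-50443705 (minus) and Slc1a4 at chr11:20332710-20332739 (minus). Slc7a11 holds 2 matches, 66 and 47 bases before its RefSeq start. The Vldlr and Slc7a11 windows lie before the RefSeq start used but inside the wider span of the gene. Those spans are chr19:27216480-27254231 for Vldlr and chr3:50364936-50499087 for Slc7a11. The Slc1a4 match spans the start itself.
Atf3: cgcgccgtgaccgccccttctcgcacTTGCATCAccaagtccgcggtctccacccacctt
Nupr1: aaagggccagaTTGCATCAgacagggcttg
Chac1: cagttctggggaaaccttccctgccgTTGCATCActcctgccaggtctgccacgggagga
Vldlr: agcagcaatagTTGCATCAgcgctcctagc
Pycr1: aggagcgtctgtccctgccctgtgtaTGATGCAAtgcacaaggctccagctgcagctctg
Slc7a11: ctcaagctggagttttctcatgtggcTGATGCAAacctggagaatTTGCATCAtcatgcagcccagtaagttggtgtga
Slc1a4: agcctccagcgtgcctcctgcgTTGCATCA
No promoter entry was matched for Eif4ebp1, Slc7a5, Slc1a5, Slc7a3 and Cth. The median log2 fold change with PFI-3 was 0.38 (GM), -0.56 (DM 24h) and -0.30 (DM 48h) for the 8 genes with the core, and correspondingly 0.32, -0.31 and -0.18 for the 22 without it. These medians are descriptions, and a match does not show that the site is bound.

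Fgf21, which encodes a secreted hormone of the FGF family, had the widest range of the 35 genes. In GM it had 0 and 1 counts in the DMSO libraries and 0 and 2 in the PFI-3 libraries. At DM 24h the DMSO libraries had 246 and 265 counts (19.5 and 20.5 CPM, counts scaled to library size) and the PFI-3 libraries 8 and 11 (0.609 and 0.839 CPM). At DM 48h the DMSO libraries had 641 and 609 counts (52.1 and 49.8 CPM) and the PFI-3 libraries 261 and 264 (20.4 and 20.6 CPM). Fgf21 was thus higher at each later stage in both arms, and PFI-3 libraries at DM 48h were at the level of DMSO libraries at DM 24h. The PFI-3 mean was 3.62% of the DMSO mean at DM 24h, which is the difference that chose the gene, and 40.3% at DM 48h. The fall at DM 48h was 1.31 on the log2 scale (log2 fold change -1.31, SE 0.13, edgeR quasi-likelihood adjusted p = 1.99e-05), and the libraries of the groups did not overlap. From GM to DM 48h the ratio of DMSO counts was 1340 (95% counting interval 240 to 53000, which covers counting error only) and the ratio of PFI-3 counts was 285 (78.5 to 2360). To DM 24h the ratios were 526 in DMSO and 10.1 in PFI-3, given as a description. Fgf21 passed the filter through its later libraries alone, so a rise from GM was fixed in advance and no interval here tests it. As these are bulk libraries, fewer cells with the transcript and less transcript per cell cannot be told apart.

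FGF21 acts through FGF receptors together with the co-receptor beta-Klotho (Klb). Klb had at most 2 counts in any library and was not tested. Fgfr4 was at 3.92 and 8.27 CPM in GM DMSO and at 226 and 232 CPM in DM 48h DMSO, a rise of 5.22 on the log2 scale (SE 0.21, edgeR adjusted p = 4.09e-10). In the same comparison Fgfr1 rose less (log2 fold change 0.66) and Fgfr2 fell (-2.11). With PFI-3, Fgfr1 fell at DM 48h (407 and 389 CPM to 248 and 245, log2 fold change -0.69, SE 0.07, edgeR adjusted p = 1.91e-05). Fgfr4 was called lower in GM (log2 fold change -1.32, SE 0.33, edgeR adjusted p = 0.0244), a call lost without GM PFI-3 library A (adjusted p = 0.108) or GM DMSO library B (0.109).

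**Figure D2:**
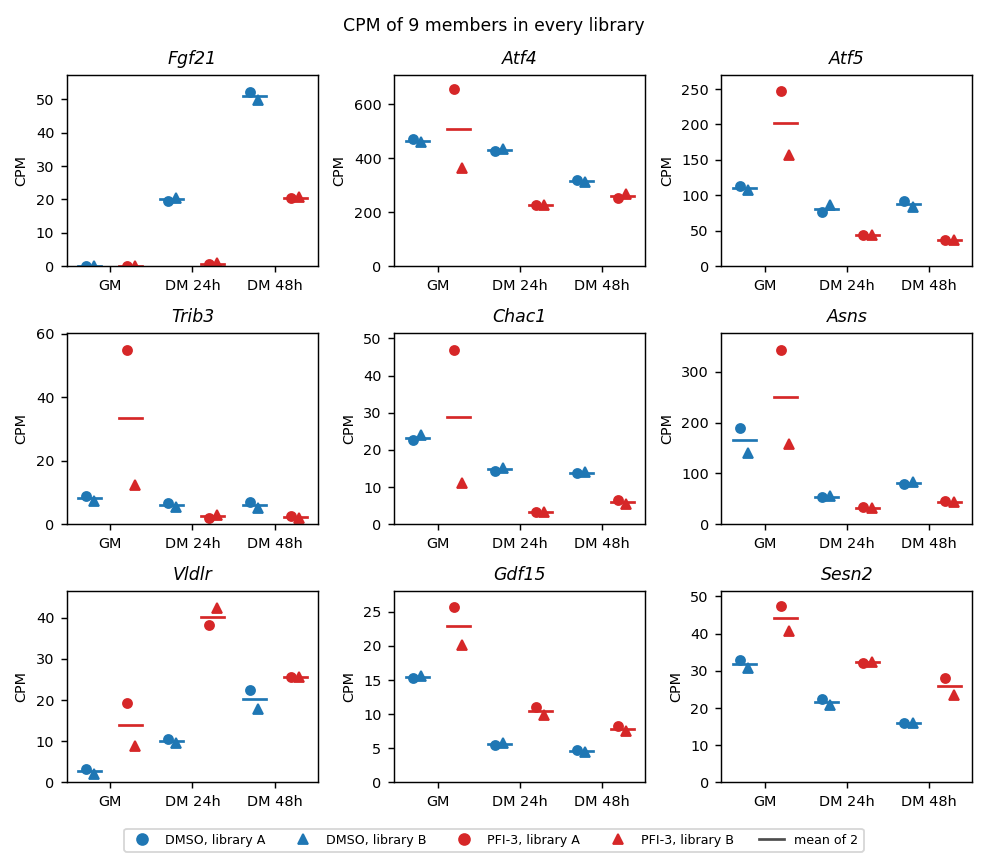
CPM (linear axes from 0) of 9 of the genes in every library; blue is DMSO, red is PFI-3, circles are library A, triangles library B, and bars the mean of 2. Fgf21 is near 0 in GM and at 0.609 and 0.839 CPM in the PFI-3 libraries at DM 24h, while Trib3, Chac1 and Asns show GM PFI-3 library A far above library B.

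Before PFI-3 is considered, the course in vehicle cells was examined, since it sets the level each comparison starts from. More of the chosen genes fell than rose as DMSO cells left proliferation, and of the roles the enzymes had the lowest median log2 fold change (-1.15 at DM 24h and -1.22 at DM 48h). Against GM, 3 of 34 genes (without Fgf21) were called higher and 20 lower at DM 24h, where 30.6% and 30.0% of all genes tested were called; at DM 48h 3 of the same 34 were called higher and 17 lower, against 37.2% and 35.9%. Fgf21 is left out of both counts, since it passed the filter through its later libraries and so had to be higher than in GM. The median log2 fold change was -0.60 by 24 h over these 34 genes and -0.56 by 48 h over all 35, against 0.02 and 0.03 over all genes. Both comparisons use the same GM DMSO libraries.

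Per unit of transcript length, Atf4 was the most abundant of the 35 at each stage in DMSO, with a mean of 281 FPKM (fragments scaled to transcript length and library size) in GM, then 265 after 24 h and 185 after 48 h. In GM it was followed by the serine pathway genes Phgdh (272 FPKM), Shmt2 (174) and Psat1 (173). Fgf21, Slc7a3 and Vldlr were the lowest there, at 0.04, 0.165 and 0.315 FPKM. By DM 48h Eif4ebp1 (184 FPKM) stood beside Atf4, and Fgf21 (56.1) had reached the level of Phgdh and Slc7a5 (56.2 each).

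Among the enzymes, 8 of 10 fell by DM 24h and 9 of 10 by DM 48h, Pycr1 not being called at either time and Aldh18a1 not at DM 24h. Phgdh, which commits glycolytic carbon to serine, went from 523 and 492 CPM in GM to 101 and 110 CPM at DM 48h (log2 fold change -2.27, SE 0.11, edgeR adjusted p = 2.86e-09). The mitochondrial one-carbon enzymes Shmt2, Mthfd1l and Mthfd2 fell by 1.88, 1.96 and 1.07 on the log2 scale. Psat1 (-0.89) and Psph (-1.37), the later steps of serine synthesis, Asns (-1.02), which makes asparagine, Aldh18a1 (-0.89), which starts proline synthesis, and Cth (-1.95), which releases cysteine from cystathionine, fell as well. No library of these 9 genes in DM 48h DMSO overlapped GM DMSO. The 9 are those already called lower, and the share over all genes was not counted, so nothing is read from this. Transporters followed: 5 of 8 fell by DM 24h and 4 of 8 by DM 48h, including the glutamine carrier Slc1a5 (-1.72 at DM 48h), the arginine carrier Slc7a1 (-1.14), Slc3a2 (-0.69), the heavy chain of amino acid exchangers, and Slc7a11 (-0.65), the cystine carrier.

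Secreted factors and brakes on growth moved in different directions. Gdf15, which encodes a stress hormone that reduces appetite, fell from 15.3 and 15.6 CPM in GM to 4.72 and 4.42 CPM at DM 48h (log2 fold change -1.75, SE 0.16, edgeR adjusted p = 8.15e-07). Ddit4, an inhibitor of the growth kinase mTORC1, rose from 17.6 and 24.7 CPM to 103 and 109 CPM (2.32, SE 0.14, adjusted p = 1.62e-08). Vldlr, a lipoprotein receptor, rose from 3.21 and 2.14 CPM to 22.5 and 17.8 CPM (2.92, SE 0.34, adjusted p = 6.45e-06). Nupr1, a small stress-induced nuclear protein, rose by 1.40, and Sesn2, another mTORC1 brake that senses leucine, fell by 0.99. Among the other regulators Cebpb (-0.39) and Atf4 (-0.56) fell by DM 48h. The Atf4 call (edgeR adjusted p = 0.0146) was lost without DM 48h DMSO library A (0.0572) or B (0.0705). At DM 24h, Atf5, Atf3, Ppp1r15a, Stc2, Cth and Slc7a5 were called lower but lost the call in 2 to 9 of the 12 fits that each left out 1 library, GM DMSO A and DM 24h DMSO A and B among them (adjusted p 0.0505 to 0.285).

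In proliferating cells, PFI-3 library A had more RNA of most of the chosen genes than DMSO library A, while the B libraries were level at the median. The median log2 ratio of PFI-3 to DMSO over the 35 genes was 0.67 between the A libraries, with 30 genes above 0, and 0.01 between the B libraries, with 18 above 0. In the model over all 12 libraries 10 of 35 were called higher and 1 lower, where 5.46% and 6.15% of all genes tested were called. Over all genes these were 685 higher and 771 lower, and with limma on log2(FPKM + 1) 1057 higher and 347 lower. In the model the median log2 fold change was 0.34 over the 35 genes and -0.01 over all genes. Both PFI-3 libraries lay above both DMSO libraries for 13 of 35 genes (21.4% of all genes tested) and below them for 2, Ppp1r15a and Slc7a11 (24.0%). Of the 10 myoblast and muscle markers Des and Vim were called lower, and the summed level of the 10 was 7270 to 8520 CPM in DMSO and 5830 to 6240 CPM in PFI-3. Vim had the highest count of the 10, up to 100592 in DMSO and 79624 in PFI-3. Of the 10 log2 fold changes 4 were above 0 and 6 below. The part of these markers in the GM results was not tested.

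The 10 came from every role. Of the regulators, Atf5, a close relative of Atf4, went from 113 and 108 CPM to 247 and 157 CPM (log2 fold change 0.87, SE 0.15, edgeR adjusted p = 0.00476). Cebpb, a C/EBP partner of ATF4, went from 107 and 120 CPM to 173 and 161 CPM (0.55, SE 0.08, adjusted p = 0.000952). For both genes the PFI-3 libraries were all above the DMSO libraries. Atf4 itself was not called: its DMSO libraries had 471 and 459 CPM, and the PFI-3 libraries lay on either side, at 654 and 364 CPM. Ddit3 (CHOP), Atf3, Cebpg and Nupr1 were also not called, with log2 fold changes from -0.14 to 0.32.

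Of the effectors, Trib3, a pseudokinase that feeds back on ATF4, had 8.94 and 7.38 CPM in DMSO and 54.8 and 12.4 CPM in PFI-3 (log2 fold change 2.04, SE 0.50, edgeR adjusted p = 0.0232). Sesn2 had 32.9 and 30.8 CPM in DMSO and 47.5 and 40.7 CPM in PFI-3 (0.47, SE 0.10, adjusted p = 0.0147). Ddit4 had 17.6 and 24.7 CPM in DMSO and 28.7 and 34.7 CPM in PFI-3 (0.58, SE 0.15, adjusted p = 0.0252). The Trib3 mean thus comes mostly from library A, while Sesn2 and Ddit4 were raised in both libraries. Chac1, which degrades glutathione, was at 22.7 and 23.9 CPM in DMSO and at 46.9 and 11 CPM in PFI-3, on either side of the DMSO libraries. Ppp1r15a (-0.26), which encodes the subunit that brings a phosphatase to eIF2, and Eif4ebp1 (0.34) were not called.

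Of the secreted factors, Gdf15 had 15.3 and 15.6 CPM in DMSO and 25.7 and 20.1 CPM in PFI-3 (log2 fold change 0.57, SE 0.13, edgeR adjusted p = 0.0194). The receptor gene Vldlr showed the largest change of the 11 called, from 3.21 and 2.14 CPM to 19.2 and 8.83 CPM (2.39, SE 0.35, adjusted p = 0.00145). Stc2, a secreted glycoprotein, had 5.57 and 5.83 CPM in DMSO and 10.8 and 7.48 CPM in PFI-3 and was not called (adjusted p = 0.0756).

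Of the 10 enzymes only Cth was called, the other 9 having log2 fold changes from -0.24 to 0.60. Cth was at 4.94 and 6.79 CPM in DMSO and 20.0 and 11.1 CPM in PFI-3 (log2 fold change 1.40, SE 0.28, edgeR adjusted p = 0.00977). Of the transporters, Slc1a4, a carrier of small neutral amino acids, had 71.5 and 66.5 CPM in DMSO and 131 and 90.3 CPM in PFI-3 (0.68, SE 0.14, adjusted p = 0.00965). Slc6a9, the glycine carrier, had 25.1 and 23.9 CPM in DMSO and 75.9 and 30.6 CPM in PFI-3 (1.12, SE 0.29, adjusted p = 0.0301). In each of the 3 genes PFI-3 library A was the highest and library B the second. Slc7a11 was the 1 gene called lower, from 1050 and 969 CPM to 914 and 806 CPM (-0.23, SE 0.07, adjusted p = 0.05, just under the threshold).

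Without GM PFI-3 library A, Atf5, Cebpb, Ddit4, Vldlr, Cth and Slc1a4 were still called higher, while Trib3, Sesn2 and Gdf15 were no longer called. Atf4 (log2 fold change -0.35), Chac1 (-1.08) and Slc7a1 (-0.34) were among the genes that changed sign in that fit. PFI-3 library B alone also lay below the DMSO mean for Nupr1 (log2 ratio -0.86), Shmt2 (-0.48), Phgdh (-0.46), Mthfd1l (-0.44) and Slc7a11 (-0.33). It was above DMSO library B for 18 of the 35 genes. Without GM PFI-3 library B, the log2 fold changes of Atf4, Chac1 and Slc7a1 were above 0. Atf5, Cebpb, Vldlr, Cth and Slc1a4 kept their calls in each of the 12 fits that left out 1 library. Ddit4 lost its call without GM DMSO A or GM PFI-3 B, and Gdf15 also without GM DMSO A. Slc6a9 lost it in 8 of the 12 fits and Slc7a11 in 10, each in fits without GM and without differentiation libraries. When the 4 GM libraries were fitted alone, with no term for the library letter, none of the 35 was called by edgeR (11 higher and 0 lower at an unadjusted p under 0.05), and 38 genes were called in all. Over all libraries, limma on either FPKM scale did not call Trib3, Slc6a9 or Slc7a11, and DESeq2 did not call Gdf15 (adjusted p = 0.0703).

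**Figure D3:**
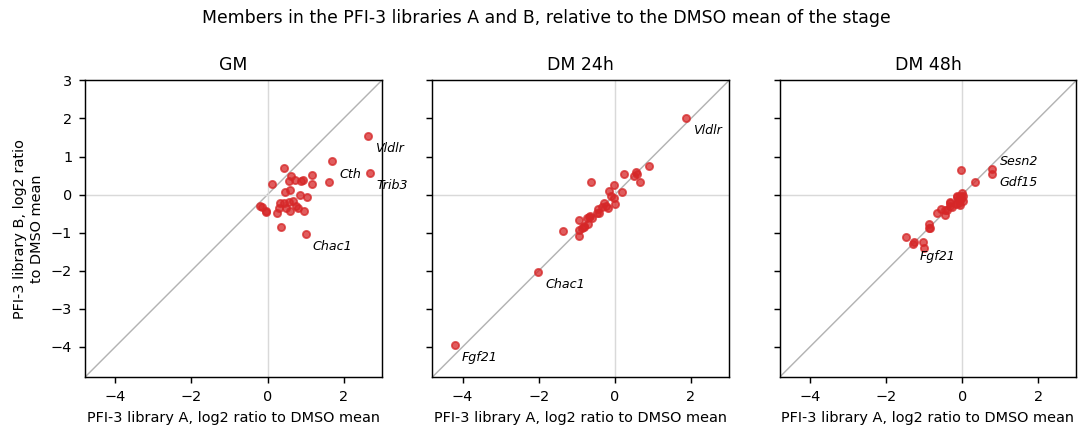
log2 ratio of CPM (with 0.5 added) in PFI-3 library A (x) and PFI-3 library B (y) to the mean of the DMSO libraries of the same stage, 1 point per gene (35 genes; Fgf21 is left out of the GM panel); the grey diagonal marks equal ratios. In GM most points lie below the diagonal, with library A above library B, and at DM 24h and DM 48h they lie along it.

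At DM 24h more of the genes were lower with PFI-3 than higher. As a description with no test, 14 of the 35 genes were at least 1.5-fold lower with PFI-3 and 3 at least 1.5-fold higher, where 7.74% and 8.05% of all genes tested passed that fold; nothing is read from this, because the list was chosen with this comparison in view. The 2 libraries of each group lay close together at this stage. Both PFI-3 libraries lay below both DMSO libraries for 22 of 35 (35.2% of all genes tested) and above them for 8 (35.3%). The median log2 fold change was -0.34 over the 35 genes and 0.00 over all genes. Of the 10 myoblast and muscle markers, 6 (Myog, Mef2c, Myh3, Ckm, Acta1 and Mymk) were also at least 1.5-fold lower, with a median of -1.19 over the 10, and their part in these values was not tested.

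Fgf21 had the largest difference (log2 fold change -4.77), and Chac1 came next, with 14.3 and 15.2 CPM in DMSO and 3.27 and 3.20 CPM in PFI-3 (-2.19). Trib3 had 6.74 and 5.50 CPM in DMSO and 2.05 and 2.90 CPM in PFI-3 (-1.30). Slc7a1 had 103 and 113 CPM in DMSO and 56.2 and 50.2 CPM in PFI-3 (-1.03). In all 4 genes the groups did not overlap. Atf4 itself had 428 and 432 CPM in DMSO and 226 and 227 CPM in PFI-3 (-0.93), and Atf5 had 76.9 and 85.7 against 44.7 and 43.9 CPM (-0.88). The other 8 that were at least 1.5-fold lower were Nupr1, Eif4ebp1, Stc2, Asns, Psph, Mthfd2, Pycr1 and Slc7a5, with log2 fold changes from -0.84 to -0.60. Eif4ebp1, which encodes a repressor of translation initiation, was the last inside the 1.5-fold limit (-0.60), and Sesn2 (0.58) and Ddit4 (0.57) were the nearest outside it.

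Vldlr stood against this direction, with 10.5 and 9.52 CPM in DMSO and 38.1 and 42.3 CPM in PFI-3 (log2 fold change 2.00). Gdf15 did too, with 5.55 and 5.80 CPM in DMSO and 11 and 9.84 CPM in PFI-3 (0.87). The third, Slc7a3, a carrier of cationic amino acids, was below 1 CPM in every DM 24h library. Cebpb (0.50), Sesn2 and Ddit4 were also higher in both PFI-3 libraries than in both DMSO libraries. The remaining genes at this stage, Atf3, Ddit3, Cebpg, Ppp1r15a, Phgdh, Psat1, Shmt2, Mthfd1l, Aldh18a1, Cth, Slc3a2, Slc7a11, Slc1a4, Slc1a5 and Slc6a9, had log2 fold changes between -0.48 and 0.46. Of these, Cth and Slc1a4 were also higher in both PFI-3 libraries than in both DMSO libraries.

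At DM 48h, a stage the rule that chose the genes does not name, Fgf21 and 6 others of the 35 fell with PFI-3 and 2 rose. The 7 were Atf5, Eif4ebp1, Fgf21, Asns, Mthfd2, Pycr1 and Slc6a9, and the 2 were Sesn2 and Gdf15. Of all genes tested 14.0% were called lower and 13.4% higher, so the share called lower was a little above the background and the share called higher below it. Over all genes these were 1756 lower and 1682 higher, and with limma on log2(FPKM + 1) 1356 lower and 2554 higher. The median log2 fold change was -0.20 over the 35 genes and 0.00 over all genes. Both PFI-3 libraries lay below both DMSO libraries for 25 of 35 (35.9% of all genes tested) and above them for 3 (35.4%). The comparisons at DM 24h and DM 48h share no library. Of the 10 myoblast and muscle markers 6 were called lower at DM 48h (Mef2c, Ckm, Myog, Myh3, Acta1 and Mymk), and their summed level was 20200 to 20400 CPM in DMSO and 15000 to 15200 CPM in PFI-3, against 6220 to 6240 and 4930 CPM at DM 24h. Their part in these results was not tested.

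Among the regulators Atf5 fell, from 92.1 and 83.9 CPM to 36.4 and 37.1 CPM (log2 fold change -1.26, SE 0.17, edgeR adjusted p = 0.000176). Atf4 had 318 and 311 CPM in DMSO and 252 and 269 CPM in PFI-3 and was not called (-0.27, SE 0.18, adjusted p = 0.311). The PFI-3 mean of Atf4 was 82.9% of the DMSO mean here, and 52.6% at DM 24h. For Atf5 the PFI-3 mean was 41.8% of the DMSO mean.

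Of the effectors, Eif4ebp1 had 172 and 175 CPM in DMSO and 94.1 and 102 CPM in PFI-3 (log2 fold change -0.83, SE 0.26, edgeR adjusted p = 0.0331). Sesn2 went the other way, from 16.1 and 16.0 CPM to 28 and 23.6 CPM (0.69, SE 0.12, adjusted p = 0.000925), as did Gdf15, from 4.72 and 4.42 CPM to 8.22 and 7.49 CPM (0.78, SE 0.17, adjusted p = 0.00545). Sesn2 and Gdf15 are thus the genes of the 35 called higher with PFI-3 both in GM, where the calls were lost without PFI-3 library A, and at DM 48h, and they were also higher in both PFI-3 libraries at DM 24h. Trib3 had the lowest log2 fold change of the 35 (-1.36, SE 0.71) but was not called, nor was Chac1 (-1.21, SE 0.52), with edgeR adjusted p = 0.179 and 0.111. Both genes were called lower when the DM 48h libraries were fitted alone, and in both the groups did not overlap. Vldlr, at 22.5 and 17.8 CPM in DMSO and 25.7 and 25.5 CPM in PFI-3, was no longer far apart (0.34, adjusted p = 0.342). The regulators Atf3, Ddit3, Cebpb, Cebpg and Nupr1 and the brakes Ppp1r15a and Ddit4 were not called, with log2 fold changes from -0.47 to 0.03, nor was Stc2 (-0.57).

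Of the enzymes, Pycr1, the last step of proline synthesis, had 20.8 and 21.2 CPM in DMSO and 7.28 and 9.45 CPM in PFI-3 (log2 fold change -1.33, SE 0.34, edgeR adjusted p = 0.0126). Asns had 80.2 and 82.4 CPM in DMSO and 45.0 and 43.6 CPM in PFI-3 (-0.88, SE 0.28, adjusted p = 0.0337). Mthfd2 had 51.6 and 50.4 CPM in DMSO and 32.0 and 36.1 CPM in PFI-3 (-0.58, SE 0.20, adjusted p = 0.0448). None of these libraries overlapped between the groups. The serine pathway genes Phgdh (-0.31), Psat1 (-0.01), Psph (-0.41) and Shmt2 (-0.43) were not called, nor were Mthfd1l (-0.08), Aldh18a1 (-0.06) and Cth (0.45). Of the enzymes not called, Phgdh, Psph, Shmt2, Mthfd1l and Aldh18a1 also had both PFI-3 libraries below both DMSO libraries. The same held for 35.9% of all genes tested. Of the transporters only Slc6a9 was called, from 39.4 and 39.4 CPM to 21.3 and 21.1 CPM (-0.90, SE 0.30, adjusted p = 0.0463), and the other 7 had log2 fold changes from -0.50 to -0.07.

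The DM 48h calls of Atf5, Fgf21, Sesn2 and Gdf15 were kept under every alternative run. Eif4ebp1, Asns, Mthfd2 and Slc6a9 were not called by limma on either FPKM scale (adjusted p 0.0547 to 0.0866). DESeq2 did not call Eif4ebp1 (adjusted p = 0.0567) or Slc6a9 (0.0791). Eif4ebp1, Asns, Mthfd2 and Slc6a9 each lost the call in 8 of the 12 fits that left out 1 library, those without a DM 24h or a DM 48h library (adjusted p from 0.051 to 0.226), and Pycr1 without DM 48h DMSO A (0.0574) or B (0.0626) or DM 48h PFI-3 A (0.112). With the 4 DM 48h libraries alone, 3 of the 35 were called higher and 17 lower. That fit also called more of all 12545 genes tested, 2781 higher and 2863 lower.

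**Figure D4:**
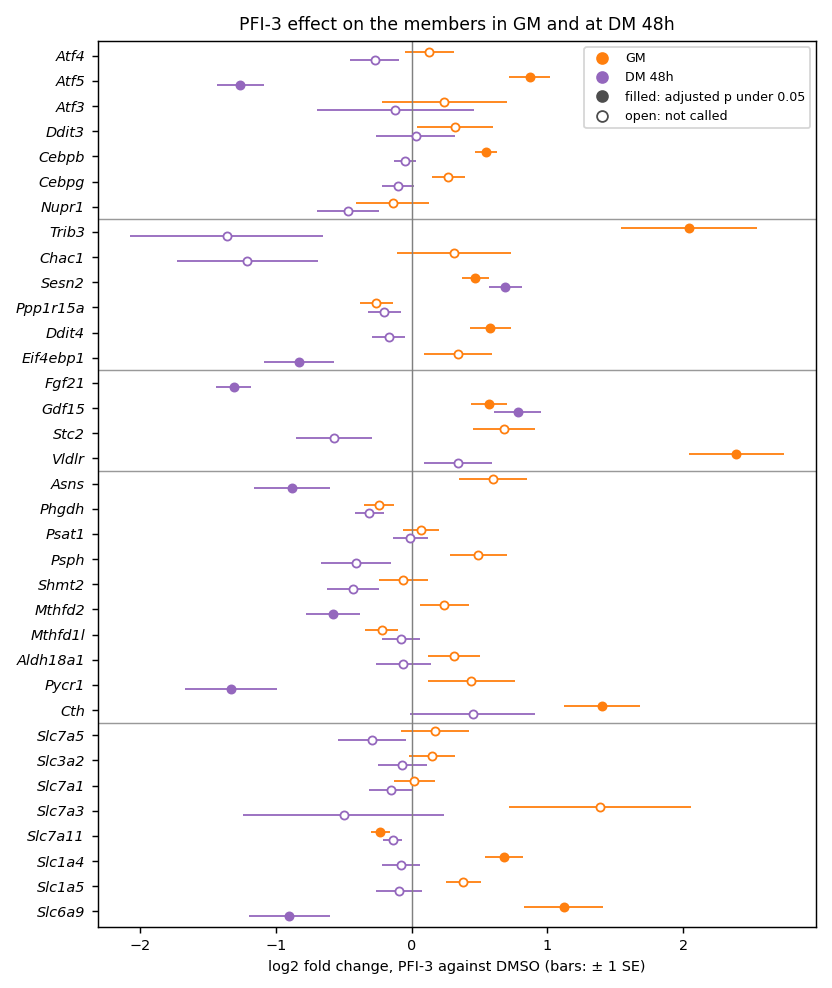
log2 fold change of each gene with PFI-3 against DMSO in GM (orange) and at DM 48h (purple), with bars of 1 SE from the edgeR model; filled points have an adjusted p under 0.05 and Fgf21 is not shown for GM. Most orange points lie right of 0 and most purple points left of it, while Sesn2 and Gdf15 are right of 0 at both stages.

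The PFI-3 effect differed between GM and DM 48h for 10 of the 35 genes by the interaction test, each with a lower log2 fold change at DM 48h, and for 0 in the other direction. Of all genes tested 6.29% were called lower and 8.25% higher by this test. At an unadjusted p under 0.05 edgeR gave 14 lower and 0 higher, DESeq2 called 11 lower and 0 higher, and limma on log2(FPKM + 1) 9 lower and 0 higher. The median difference was -0.46 over the 35 genes and 0.02 over all genes. The largest were Trib3 (-3.40, SE 0.86, edgeR adjusted p = 0.0207), Atf5 (-2.13, SE 0.23, 0.000109), Vldlr (-2.05, SE 0.43, 0.0082), Slc6a9 (-2.01, SE 0.42, 0.00764) and Pycr1 (-1.77, SE 0.47, 0.0257). Asns (-1.47), Stc2 (-1.26), Slc1a4 (-0.76), Ddit4 (-0.75) and Cebpb (-0.60) were the others. Atf5 and Slc6a9 were called higher in GM and lower at DM 48h. Atf5, Cebpb, Slc6a9 and Vldlr kept the call in each of the 12 fits that left out 1 library, and they were the 4 called when the GM and DM 48h libraries were fitted without the DM 24h libraries. Vldlr lost it with limma on log2(FPKM + 1) (adjusted p = 0.0922). Trib3, Asns and Pycr1 lost the call in the 4 fits without a DM 48h library, Slc1a4 in 3 of those, Ddit4 in 3 of those and without GM PFI-3 B, and Stc2 in 9 of the 12 (adjusted p 0.0512 to 0.197 over these fits). The number of the 35 genes called by this test depended on which GM PFI-3 library was left out.

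Other parts of the stress response were compared through lists of their genes. Of 14 genes for eIF2, its kinases and its exchange factor, PFI-3 raised 3 and lowered 3 at DM 48h and raised 1 and lowered 1 in GM. The shares over all genes tested were 13.4% higher and 14.0% lower at DM 48h and 5.46% and 6.15% in GM, so 1 of 14 in GM is near the background. The kinase gene Eif2ak2, whose product senses double-stranded RNA, rose at DM 48h from 21.1 and 19.2 CPM to 37.8 and 37.3 CPM (log2 fold change 0.89, SE 0.09, edgeR adjusted p = 1.63e-05). Eif2ak3 (PERK), the kinase of the endoplasmic reticulum, rose by 0.34, a call lost without DM 48h PFI-3 A (adjusted p = 0.165) or DM 48h DMSO B (0.159). Eif2b4, a subunit of the exchange factor, fell by 0.36, a call lost without DM 48h DMSO B (0.0523).

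Of 12 other amino acid and one-carbon enzymes, 1 rose and 1 fell in GM, and 4 rose and 2 fell at DM 48h, against 5.46% and 6.15% of all genes in GM and 13.4% and 14.0% at DM 48h. Aldh1l2, a mitochondrial folate enzyme, had 60.7 and 53.9 CPM in GM DMSO and 204 and 98.0 CPM in GM PFI-3 (log2 fold change 1.40, SE 0.24, edgeR adjusted p = 0.00397). At DM 48h it had 49.1 and 47.9 CPM in DMSO and 16.8 and 17.6 CPM in PFI-3 (-1.49, SE 0.28, adjusted p = 0.00175). Aldh1l2 was thus called higher in GM and lower at DM 48h, as Atf5 and Slc6a9 were. Mthfd1, the cytosolic folate enzyme, rose at DM 48h (0.56, SE 0.09, adjusted p = 0.000509), and Gpt2, a mitochondrial transaminase, was called lower (-0.73, adjusted p = 0.0363) but lost the call in 8 of the 12 fits that left out 1 library, those without a DM 24h or DM 48h library.

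Of 20 cytosolic aminoacyl-tRNA synthetases, 18 fell in DMSO cells by DM 24h and 18 by DM 48h, where 30.0% and 35.9% of all genes tested fell. With PFI-3 1 was called lower in GM (Farsa, -0.36, edgeR adjusted p = 0.00616) and 2 at DM 48h, no larger a share than that of all genes tested (6.15% and 14.0%). The DM 48h calls, Mars (-0.41) and Farsa (-0.21), were lost in 4 and 6 of the 12 fits that left out 1 library, each in the fits without one of the 4 DM 48h libraries and Farsa also without DM 24h DMSO A or B (adjusted p 0.0522 to 0.167). At DM 24h 7 of the 20 were at least 1.5-fold lower, against 7.74% of all genes tested, as a description.

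Of 11 genes of the other branches of the unfolded protein response, which handle misfolded protein in the endoplasmic reticulum, 4 fell in GM (6.15% of all genes tested), and 6 rose (13.4%) and 3 fell (14.0%) at DM 48h. One of the 4 GM calls, Hsp90b1, was lost in 9 of the 12 fits that left out 1 library, those without GM PFI-3 A or a differentiation library (edgeR adjusted p 0.0594 to 0.123). Xbp1, the transcription factor of the IRE1 branch, had 85.8 and 107 CPM in GM DMSO and 52.8 and 56.6 CPM in GM PFI-3 (log2 fold change -0.82, SE 0.10, edgeR adjusted p = 0.000367). The chaperone gene Hyou1 had 133 and 142 CPM in DM 48h DMSO and 204 and 190 CPM in DM 48h PFI-3 (0.52, SE 0.06, adjusted p = 9.55e-05). Creld2 rose by 0.57 and Herpud1 fell by 0.64 at DM 48h. Members of this list thus moved in both directions at DM 48h. Of 11 autophagy genes, Map1lc3b was called higher in GM (0.35) and Nbr1 lower at DM 48h (-0.26), and both calls were lost in 4 of the 12 fits that left out 1 library: Map1lc3b without GM DMSO A, GM PFI-3 A, DM 24h DMSO A or B, and Nbr1 in the fits without one of the 4 DM 48h libraries.

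Some of the chosen genes overlap another gene: Atf5 with Nup62, Ddit3 with Mbd6 and Mars, Ppp1r15a with Tulp2, Psph with Cct6a, Shmt2 with Ndufa4l2, Slc7a3 with Snx12 and Slc6a9 with Ccdc24. Whether counting used the strand is not given in the sources used here, so reads of these pairs may be mixed.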

How the data were processed

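RNA sequencing libraries were made from total RNA extracted with Trizol, by BGI Americas, per the labels' protocols. The submitters' processing notes name HISAT, StringTie, Cufflinks, Bowtie, RSEM and DESeq2 and the build mm10, with no roles given. The authors deposited 1 table per library with an expected count and an FPKM value per gene, per the file headers. Between 93.3% and 93.7% of the expected counts in a library were whole. A gene missing from a table was taken as 0.

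Expected counts were rounded and tested with edgeR 4.0.16 (R 4.3.3): filterByExpr kept 12545 genes, TMM scaled the libraries, and a quasi-likelihood model with 1 mean for each of the 6 groups was fitted to all 12 libraries. Called means a Benjamini-Hochberg adjusted p under 0.05 over all genes tested. The SE of a log2 fold change is its size divided by the square root of the F statistic. CPM are counts scaled to the TMM library size. The deposited FPKM values set the order of levels between genes and served limma 3.58.1 on log2(FPKM + 1) and log2(FPKM + 0.1), a scale that understates changes of low genes. The 9 alternatives were these 2, DESeq2 1.42.0, its size factors in edgeR, no count filter, a mean of at least 10 counts, the replicate letter as a block, and only the libraries compared, without and with that block. A further 12 fits left out 1 library each. The procedure was tested on simulated data for PFI-3 at DM 48h only. Of 200 genes changed 2-fold edgeR recovered 86.5%, and 5.46% of its calls were false. The simulated spread of a gene was the same in every group, so the check does not cover the wider spread in GM.

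All 35 members are named. Values in every library are given for Fgf21, for members called in GM or at DM 48h, and for the 5 with the largest DM 24h difference at a mean of at least 1 CPM. Up to 3 called genes per comparison come from each other list, and genes named beyond this (Atf4, Chac1 and Stc2 in GM, for example) were picked after their values were seen. The members and lists were chosen with earlier results of these data known.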

Additional observations from a re-analysis of the deposited data

Results flagged for a closer look

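The effect of PFI-3 differed between GM and DM 48h by the edgeR interaction test for 10 of the 35 genes, given as the log2 fold change at DM 48h minus that in GM. The values were -2.13 for Atf5, -0.60 for Cebpb, -3.40 for Trib3, -0.75 for Ddit4, -1.26 for Stc2, -2.05 for Vldlr, -1.47 for Asns, -1.77 for Pycr1, -0.76 for Slc1a4 and -2.01 for Slc6a9. All 10 were lower at DM 48h. Over all genes tested the shares were 6.29% lower and 8.25% higher.

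The same test separated the stages for genes of the other lists, of which up to 3 are named per list. Among 14 eIF2 genes 2 were called higher and 0 lower, and among 12 other enzymes 4 and 2. Among 11 unfolded protein response genes the calls were 7 and 2, and among 11 autophagy genes 0 and 1. Among 4 FGF21 receptor genes they were 0 and 1, among 10 muscle markers 1 and 2, and among 20 synthetases 0 and 0. The eIF2 kinase genes Eif2ak3 (0.59) and Eif2ak2 (0.53) had higher values at DM 48h, but both calls were lost without DM 48h DMSO library B (edgeR adjusted p = 0.0663 and 0.0701) and with DESeq2 (0.0591 and 0.0572), and that of Eif2ak3 also without DM 48h PFI-3 library A (0.0669). Among amino acid and one-carbon enzymes, Aldh1l2 (-2.89) and Gpt2 (-1.48) had lower and Shmt1 (0.86) higher values; the Gpt2 call was lost in 3 of the 12 fits that left out 1 library, each without a DM 48h library (0.0511 to 0.0572). The endoplasmic reticulum chaperone and folding genes Sdf2l1 (0.79), Hyou1 (0.79) and Hsp90b1 (0.78) had higher values, the Sdf2l1 call being lost in 10 of those 12 fits (0.066 to 0.153). The autophagy gene Map1lc3b (-0.41) and the receptor gene Fgfr1 (-0.71) had lower values, the Map1lc3b call being lost in 10 of the 12 fits (0.0755 to 0.162) and the Fgfr1 call in none. Of the muscle markers, Myog (-1.87) and Myh3 (-1.39) had lower and Vim (0.54) higher values. Myog and Myh3 were near 0 in GM, and their calls were lost without GM DMSO library A or GM PFI-3 library B (adjusted p 0.0985 to 0.268).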

How the results depend on the processing

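With 2 libraries a group, every count of calls depended on how the spread was estimated. For PFI-3 in GM, 11 of the 35 genes were called over all libraries and 0 with the GM libraries alone (11 higher and 0 lower at an unadjusted p under 0.05 by edgeR). With the replicate block added to that fit 11 were called higher and 0 lower (15 and 1 unadjusted), and leaving out 1 library gave 8 to 24. Without GM PFI-3 library A, 3 estimates changed sign and were called lower: Atf4 (-0.35, against 0.49 without library B), Chac1 (-1.08, against 1.01) and Slc7a1 (-0.34, against 0.30). At DM 48h 9 were called, 5 with limma on either FPKM scale, 20 with the DM 48h libraries alone and 21 when the replicate block was added to that fit, and leaving out 1 library gave 4 to 16. For the interaction 10 were called, 4 without the DM 24h libraries, 14 with the replicate block added there, and 4 to 21 when 1 library was left out. The cause was not tested. Over all genes, PFI-3 in GM gave 1456 calls, 38 with the GM libraries alone, 922 with the replicate block added there and 1020 to 2742 without 1 library. DM 48h gave 3438 calls, 5644 and 6077 in the same fits of its own libraries, and 1961 to 4323 without 1 library. The interaction gave 1824 calls, 1033 without the DM 24h libraries, 2267 with the block added there and 1018 to 2935 without 1 library. At DM 24h, 1981 genes passed 1.5-fold, 975 on log2(FPKM + 1) and 4099 with no count filter. The largest shift of the median of all genes under any scaling was 0.0915 on the log2 scale.

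The letters A and B are shared across groups, but nothing says that they mark a shared culture or day. The deviations of same-letter DMSO and PFI-3 libraries had a correlation of 0.504 (GM), 0.0293 (DM 24h) and 0.0465 (DM 48h). With a replicate block over all libraries the calls among the 35 numbered 11 for GM, 9 for DM 48h and 12 for the interaction test, and 22 at both DMSO stages against GM. Counts of Cth, Trib3 and Slc7a3 were low in several libraries, which limits their precision.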
